A study of Mus musculus with 9 samples.

Results

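The urea cycle and the enzymes that break down amino acids are described here as a set of 39 genes in 11 pathways. The genes were picked by symbol, with earlier results of these data known. All 39 were rows of the table of 24419 symbols. RNA was from the liver of male FVB mice on a normal diet, with 3 libraries in each of 3 groups. The CTRL group was 13, 13 and 17 weeks of age. MODEL1 animals, all 18 weeks of age, carried a mutant NFE2L2 (the transcription factor NRF2), G31A, together with a mutant CTNNB1 (beta-catenin), T41A. MODEL2 animals carried NFE2L2 T80K with the same CTNNB1 T41A and were 19, 20 and 22 weeks of age. Both models had received 20 µg of each plasmid in 2 ml of saline by hydrodynamic tail vein injection, a route that delivers DNA mainly to hepatocytes. Sleeping Beauty transposase, given alongside, integrates the plasmid cassette. The labels name no promoter for the plasmids and do not say whether CTRL mice were injected or whether tumour or surrounding liver was taken. The series' design text describes a control with wild-type NFE2L2 and T41A beta-catenin. Whether the CTRL libraries are that control is not stated by the labels. If CTRL mice lacked the plasmids, comparisons with CTRL separate neither NFE2L2 from CTNNB1 nor group from injection. In either case group cannot be told apart from age.

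Hepatocytes turn the ammonia released from amino acids into urea. In the healthy lobule the urea cycle, liver glutaminase and histidine and serine breakdown are strongest around the portal tract, while a thin ring of hepatocytes at the central vein, where beta-catenin signalling is active, captures the remaining ammonia as glutamine. The liver is also the main site where phenylalanine, tyrosine and tryptophan are degraded and where methionine is turned into S-adenosylmethionine, the methyl donor of the cell.

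The libraries were shallow. Total counts ran from 219504 to 325177, and the 39 genes together held 141 to 356 counts per library. Of the 39, 30 had at least 10 counts over the 9 libraries and 9 had fewer. Levels are given as CPM, counts per 1000000 of effective library size, which is the total over the tested genes times edgeR's scaling factor. Where a library shows 0 counts, a level of up to 3 counts is still possible, or 9.43 to 14.6 CPM depending on the library. Rn45s, the ribosomal RNA precursor, held 2.20% to 13.4% of counts and over 8% in CTRL replicate 1 and MODEL1 replicates 1 and 3, called rich in Rn45s below. Hepatocyte markers were present, with 721 to 984 counts over 10 genes in CTRL libraries, 589 to 823 in MODEL1 and 541 to 821 in MODEL2, although albumin (Alb) itself held only 94 to 337 counts per library. Of the 7 Kupffer cell and macrophage markers, 6 had a count, and their sum was 7 to 11 in CTRL, 20 to 25 in MODEL1 and 8 to 10 in MODEL2, with Adgre1 at 0 throughout. The 7 stellate cell and fibroblast markers summed to 2 to 4, 5 to 8 and 0 to 2 counts, and the 6 endothelial markers to 6 to 10, 2 to 26 and 5 to 10. All 4 neutrophil markers in the table, 4 of 6 cholangiocyte markers and the 4 globin genes were at 0 in every library. Alas2, the remaining one of the 5 erythroid markers, held 28 to 124 counts in CTRL libraries, 84 to 122 in MODEL1 and 38 to 69 in MODEL2. It shares 311 exon bases with Apex2 on the opposite strand. Globin transcripts are abundant in any liver that holds blood, and albumin is normally among the most abundant liver transcripts, so these counts may not follow transcript abundance for every gene. The strand and mate settings of the counting are not given in the sources used here, and their part in any value below was not tested. The 6 cell cycle markers summed to 56 to 77, 127 to 158 and 136 to 175 counts, nearly all of them from Ccna2 and Aurka. Ccnb1 and Cdk1 were at 0 in every library, Mki67 held at most 10 counts and Top2a at most 1. Ccna2 shares 510 exon bases with Exosc9 on the opposite strand. The part of these shifts in the results below was not tested, and in whole liver fewer hepatocytes and less RNA per hepatocyte cannot be told apart.

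The summed level of the 39 genes was lower in both models than in CTRL, and lowest in MODEL1. CTRL libraries held 1312, 1296 and 1492 CPM, MODEL1 libraries held 535, 850 and 701, and MODEL2 libraries held 1120, 890 and 911. On this scale the 3 groups did not overlap. Group means were 1367 ± 109 CPM for CTRL, 695 ± 157 for MODEL1 and 974 ± 127 for MODEL2 (SD, n = 3). On summed counts MODEL1 held 0.504 of the CTRL level and MODEL2 held 0.714. Without Cps1 and Mat1a, the 2 members called below, the ratios were 0.594 and 0.778. As a share of all counts other than Rn45s, the members were 0.129% ± 0.0181 in CTRL, 0.0741% ± 0.0201 in MODEL1 and 0.0952% ± 0.00923 in MODEL2. On that scale the models overlapped, since MODEL1 replicate 2 (0.0936%) lay above MODEL2 replicates 2 (0.0878%) and 3 (0.0922%). The 10 hepatocyte markers gave scaled ratios of 0.703 and 0.694, but they did not move together. Of the 10, 8 were tested. In MODEL1, Alb, Apoa1 and Fgb were called lower. Apob, the apolipoprotein of very low density lipoprotein, was called higher there by 0.91 ± 0.22 log2 units (edgeR adjusted p = 0.00338). In MODEL2, Alb, Apoa1 and Ahsg were called lower and 0 higher. Of all tested genes, 22.8% were called in MODEL1 and 13.3% in MODEL2. Apoa2 was above 0 in both models, at 0.33 ± 0.32 and 0.69 ± 0.32, and was not called. Without Apob, left out after its values were seen, the marker ratios were 0.540 and 0.647. No test was made of a sum over chosen members.

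**Figure D1:**
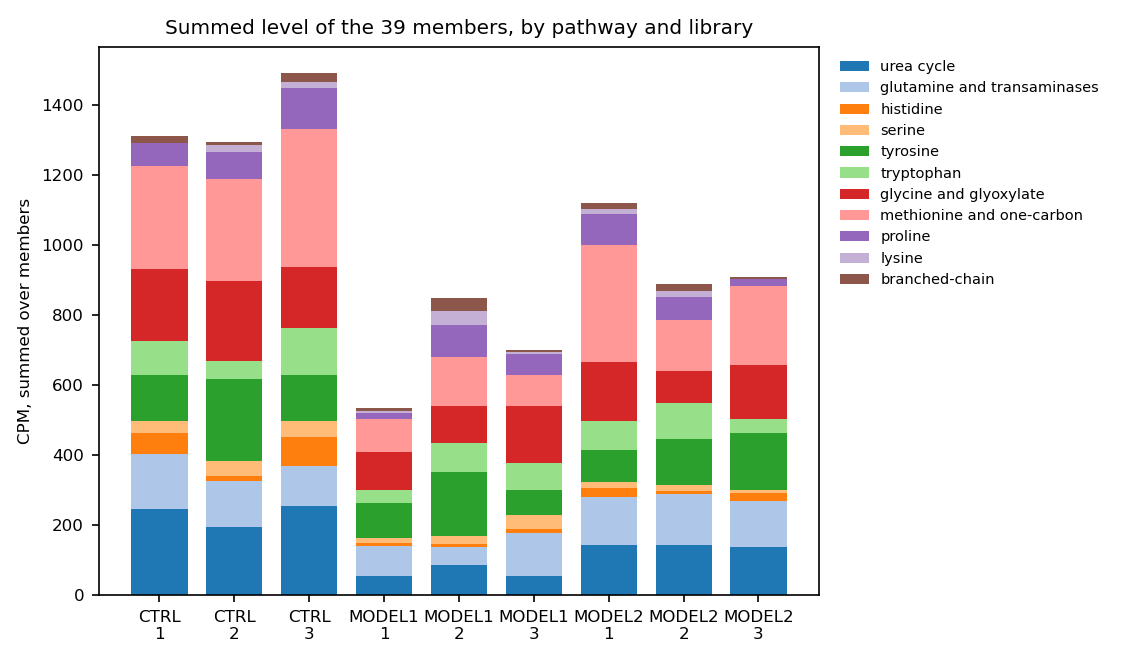
Stacked bars give the CPM summed over the members of each of the 11 pathways, 1 bar per library, with replicate numbers under the group names. The tallest MODEL1 bar (850 CPM, replicate 2) stays below the shortest MODEL2 bar (890 CPM, replicate 2), and the urea cycle and methionine blocks are thinnest in MODEL1.

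By pathway, the summed ratio of MODEL1 to CTRL was 0.178 for histidine breakdown (38 and 8 counts, 3 of the 38 in CTRL replicate 2), 0.267 for the urea cycle and 0.321 for methionine and one-carbon metabolism. The last 2 leaned on single genes: without Cps1 the urea cycle ratio was 0.441, and without Mat1a the methionine ratio was 0.462, sums chosen after the values were seen. It lay between 0.635 and 0.696 for proline, glycine and glyoxylate, tryptophan, glutamine and transaminases, tyrosine and serine. The branched-chain enzymes (13 and 13 counts) and the lysine enzyme Aass (8 and 13 counts) were too low to place. Differences between pathways were not tested. MODEL2 had ratios of 0.335 for serine, 0.370 for histidine and 0.602 for the urea cycle, and of 0.672 to 1.03 for the other pathways.

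The filter on low counts left 9 members to test, and it passes a gene through the group where it is high. In MODEL1 against CTRL, edgeR's quasi-likelihood test called 2 of the 9 lower and 0 higher, beside 22.8% of all 2639 tested genes called in either direction, 11% of them lower. The 2 were Cps1 and Mat1a. The share of members called is therefore close to the background, whereas all 9 log2 fold changes were below 0. Their median was -0.84, against 0.00 over all tested genes. In 4 of the 9 (Cps1, Arg1, Amt and Mat1a) every MODEL1 library lay below every CTRL library, a pattern that 17.4% of all tested genes showed.

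**Figure D2:**
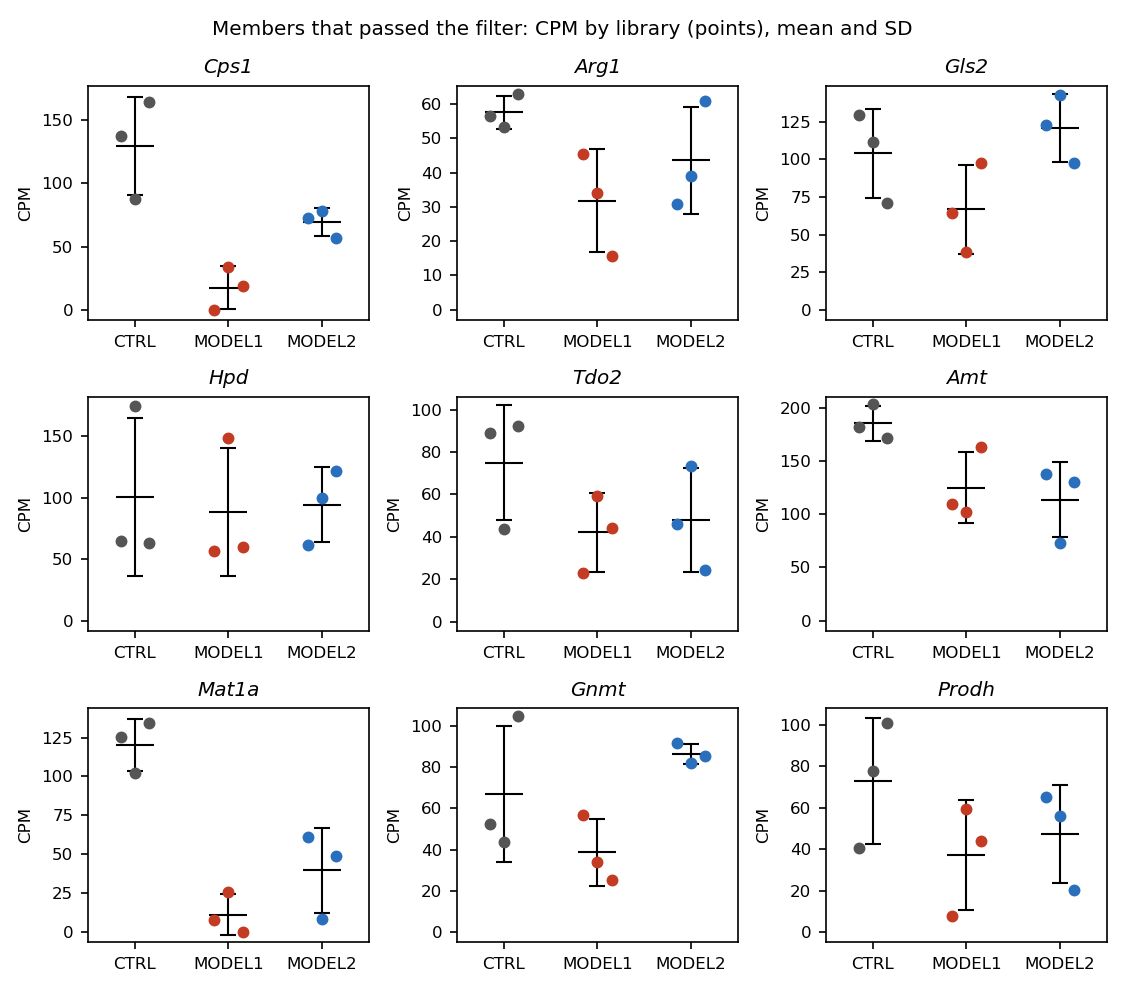
Each panel shows 1 of the 9 tested members, with CPM in each library as a point (replicates 1 to 3 from left to right in a group) and the mean with its SD as a bar. Cps1 and Mat1a separate MODEL1 (17.6 and 11.03 CPM on average) from CTRL (129 and 120 CPM), while Hpd spreads over the same range in all 3 groups.

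Cps1 makes carbamoyl phosphate from ammonia in the mitochondrion, the entry step of the urea cycle (mm10 chromosome 1, 67123026 to 67231259, plus strand). The CTRL libraries held 34, 18 and 39 counts (replicates 1 to 3 in order, as in all such triplets), the MODEL1 libraries 0, 8 and 6, and the MODEL2 libraries 19, 18 and 14. The 3 groups did not overlap after scaling, with MODEL2 between the others. Cps1 fell by 2.88 ± 0.57 (SE) log2 units in MODEL1 against CTRL (edgeR adjusted p = 0.000669; lower in 3 of 3 libraries), from 129 ± 38.7 to 17.6 ± 17.0 CPM. No gene has an exon opposite it, but whether these few counts follow transcript abundance was not tested.

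The later steps of the cycle were thinner in counts. Argininosuccinate lyase (Asl), which splits off arginine, held 13, 10 and 7 counts in CTRL, 0, 3 and 4 in MODEL1 and 8, 6 and 5 in MODEL2. It missed the filter, and its summed ratio of MODEL1 to CTRL was 0.198, with an exact 95% counting interval of 0.0733 to 0.459. Every MODEL1 library lay below every CTRL library. Arginase (Arg1), which releases urea, held 14, 11 and 15 counts in CTRL, 12, 8 and 5 in MODEL1 and 8, 9 and 15 in MODEL2. Its log2 fold change in MODEL1 was -0.87 ± 0.53 (edgeR adjusted p = 0.265), a difference that did not pass although the libraries of the 2 groups were separate. Ornithine transcarbamylase (Otc) had 8 counts in all, and argininosuccinate synthase (Ass1), listed in the table, had 0 counts in every library. Liver normally expresses Ass1 strongly, so its 0 is not read as absence of the transcript, and no comparison was made for either gene.

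Liver glutaminase (Gls2) releases ammonia from glutamine for the cycle. It held 32, 23 and 17 counts in CTRL, 17, 9 and 31 in MODEL1 and 32, 33 and 24 in MODEL2. MODEL1 overlapped CTRL, with a log2 fold change of -0.61 ± 0.40 (adjusted p = 0.299). Spryd4, whose exon shares 97 bases with Gls2 on the opposite strand, had summed counts of 67, 5 and 52 in the 3 groups, and reads of the pair cannot be assigned with certainty. Alanine aminotransferase (Gpt) had 21, 14 and 13 counts in CTRL, MODEL1 and MODEL2, and aspartate aminotransferase (Got1) had 3 in all.

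Histidine is deaminated by Hal, and Uroc1 and Ftcd act later on the route to the folate pool. Hal held 9, 1 and 9 counts in CTRL, 2, 0 and 2 in MODEL1 and 3, 2 and 4 in MODEL2, a summed ratio of 0.178 (0.0441 to 0.537) in MODEL1, with overlapping libraries because CTRL replicate 2 held a single count. Uroc1 held 12 counts in CTRL, none of them in replicate 2, and 0 in MODEL1, where the exact interval allowed a ratio of up to 0.305. Ftcd had 7, 4 and 2 counts. Serine dehydratase (Sds), which makes pyruvate and ammonia from serine, held 8, 9 and 11 counts in CTRL, 4, 6 and 13 in MODEL1 and 4, 4 and 2 in MODEL2. Against CTRL the summed ratio for MODEL2 was 0.335 (0.145 to 0.710), and its libraries all lay below those of CTRL. For MODEL1 it was 0.696 (0.383 to 1.25). Plbd2, with 360 shared exon bases opposite Sds, held 252, 29 and 178 counts in the 3 groups, and reads where they overlap cannot be assigned with certainty. Sdsl, a relative of Sds, was at 0 in every library.

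Tyrosine breakdown runs from tyrosine aminotransferase (Tat) through Hpd and Hgd to fumarylacetoacetase (Fah). Tat held 13, 6 and 6 counts in CTRL, 4, 4 and 0 in MODEL1 and 4, 2 and 6 in MODEL2. Libraries of either model lay below all CTRL libraries, with ratios of 0.271 (0.106 to 0.620) and 0.450 (0.206 to 0.930). For MODEL2 this rests on scaling, since replicate 3 of MODEL2 and of CTRL held 6 counts each, at 24.4 and 25.2 CPM. Hpd, the dioxygenase that follows, held 16, 36 and 15 counts in CTRL, 15, 35 and 19 in MODEL1 and 16, 23 and 30 in MODEL2. Its log2 fold changes were -0.19 ± 0.47 and -0.08 ± 0.47 (adjusted p = 0.821 and 0.936 in edgeR), and the spread within groups was larger than any difference between them. Hgd had 12, 11 and 7 counts and Fah had 8, 4 and 6.

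Tdo2 opens the indole ring of tryptophan. It held 22, 9 and 22 counts in CTRL, 6, 14 and 14 in MODEL1 and 12, 17 and 6 in MODEL2, and the log2 fold changes of -0.84 ± 0.51 and -0.66 ± 0.51 did not pass (edgeR adjusted p = 0.265 and 0.455). Haao, further down the kynurenine route, had 12, 10 and 11 counts. Kynurenine monooxygenase (Kmo) had 0 counts in all 3 CTRL libraries, 2, 4 and 3 in MODEL1 and 2, 4 and 2 in MODEL2. Against CTRL, the exact intervals put the lower limit of the ratio at 1.67 for MODEL1 and 1.60 for MODEL2. Single libraries of the models held 7.59 to 17.3 CPM, while 0 counts in a CTRL library still allow 12.1 to 14.6 CPM. Kmo was the single member whose counting interval lay above 1 in either model against CTRL, a pattern shown by 18.3% of symbols with at least 10 counts in MODEL1 and 12.7% in MODEL2. Kynu had 4 counts in all.

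The glycine cleavage system is represented by Gldc, its decarboxylase, and Amt, its aminomethyltransferase. Amt had the most counts of any member, 45, 42 and 41 in CTRL, 29, 24 and 52 in MODEL1 and 36, 17 and 32 in MODEL2. After scaling, all libraries of both models lay below those of CTRL, but the log2 fold changes of -0.56 ± 0.32 and -0.70 ± 0.33 did not pass (edgeR adjusted p = 0.243 and 0.183). Gldc had 9 counts over the CTRL libraries, 1 over MODEL1 and 14 over MODEL2. Against CTRL the ratio was 0.0941 (0.00215 to 0.679) for MODEL1, resting on 1 count, and 1.46 (0.588 to 3.82) for MODEL2. Agxt, which clears glyoxylate, had 7 counts in all.

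Mat1a makes S-adenosylmethionine and is the form typical of mature hepatocytes (mm10 chromosome 14, 41105035 to 41124412, plus strand). It held 31, 21 and 32 counts in CTRL, 2, 6 and 0 in MODEL1 and 16, 2 and 12 in MODEL2. Both models lay below CTRL in every library and overlapped each other. Mat1a fell by 3.52 ± 0.71 log2 units in MODEL1 (edgeR adjusted p = 0.000728), from 120 ± 16.6 to 11.03 ± 13.1 CPM. As with Cps1, no gene has an exon opposite Mat1a, and whether its counts follow transcript abundance was not tested. In MODEL2 its log2 fold change was -1.58 ± 0.59 (adjusted p = 0.0853).

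Further enzymes of the methionine cycle had fewer counts, apart from Gnmt. Gnmt, which consumes excess methyl groups, held 13, 9 and 25 counts in CTRL, 15, 8 and 8 in MODEL1 and 24, 19 and 21 in MODEL2, with a log2 fold change of -0.80 ± 0.48 in MODEL1 (edgeR adjusted p = 0.253). Ahcy, which hydrolyses S-adenosylhomocysteine, held 4, 9 and 4 counts in CTRL, 0, 0 and 1 in MODEL1 and 2, 2 and 2 in MODEL2, without overlap between CTRL and either model. Bhmt, which remethylates homocysteine with betaine, held 6, 6 and 6 counts in CTRL, 0, 2 and 5 in MODEL1 and 16, 7 and 8 in MODEL2. It was thus below CTRL in every MODEL1 library and above it in every MODEL2 library after scaling, with ratios of 0.329 (0.116 to 0.827) and 1.62 (0.876 to 3.07). The nearest MODEL2 and CTRL libraries were at 30.2 and 29.1 CPM. Gm15622 shares 187 exon bases with Bhmt on the opposite strand and was not among the symbols counted. Dmgdh, which acts on the dimethylglycine that Bhmt leaves, had 25, 8 and 18 counts. AW495222, on the strand opposite Dmgdh with 215 shared exon bases, held 4220, 1273 and 3610 counts and fell by 1.98 ± 0.18 log2 units in MODEL1 (adjusted p = 3e-08), so reads at Dmgdh cannot be assigned with certainty. In the transsulfuration pair, Cbs had 14, 12 and 13 counts, while Cth, which releases cysteine, had 9, 2 and 1. Sardh had 13, 17 and 13, and shares 188 exon bases with Sardhos on the opposite strand.

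Prodh starts proline oxidation. It held 10, 16 and 24 counts in CTRL, 2, 14 and 14 in MODEL1 and 17, 13 and 5 in MODEL2, and its log2 fold changes of -0.97 ± 0.59 and -0.61 ± 0.58 did not pass (edgeR adjusted p = 0.266 and 0.555). Aldh4a1, which follows it, had 10, 15 and 8 counts. For the branched-chain enzymes Bckdha, Bckdhb, Ivd and Hibadh, 4 to 21 counts over all 9 libraries allowed no comparison. Bckdha shares 1171 of its 1899 exon bases with B3gnt8 on the opposite strand.

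Over the 30 members with at least 10 counts, 26 had a lower scaled sum in MODEL1 than in CTRL, where 47.3% of the 7533 symbols with at least 10 counts did. In MODEL2 it was 25 of 30, against 54.3%. The counting interval lay below 1 for 17 of the 30 in MODEL1 (15.9% of all such symbols) and for 8 in MODEL2 (15.5%). The median log2 ratio of the 30 was -0.94 in MODEL1 and -0.58 in MODEL2, against 0.05 and -0.09 over all 7533. The 2 comparisons share their CTRL libraries. These intervals cover counting error only, and values of 2 outnumbered values of 1 in 8 of 9 libraries, so counts may not be independent and the intervals may be too narrow. Of the 30, 4 were not lower in MODEL1: Kmo, Sardh, Aldh4a1 and Aass.

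**Figure D3:**
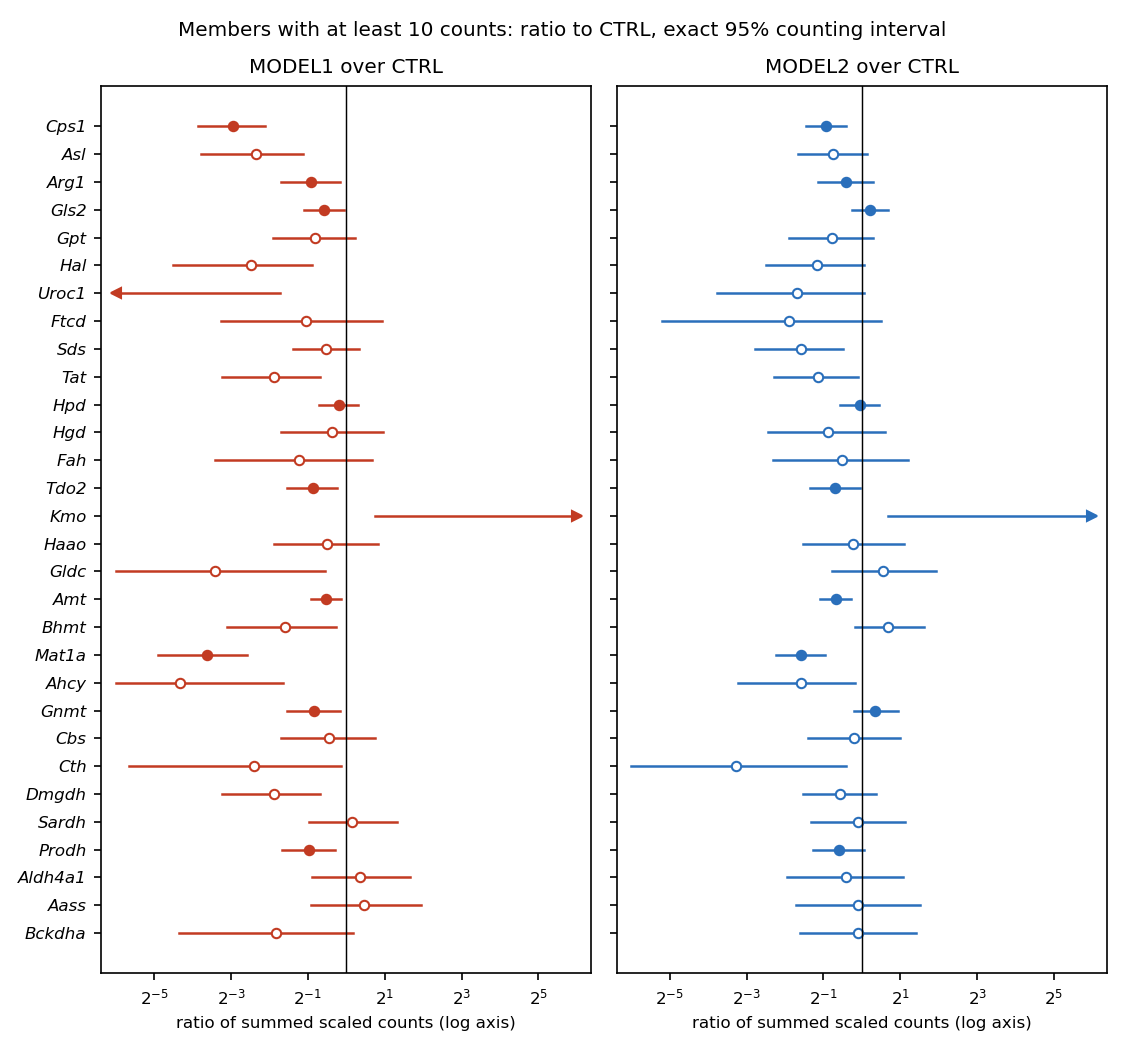
Points give the ratio of summed scaled counts to CTRL on a log axis for the 30 members with at least 10 counts, lines the exact 95% counting interval, cut at the edge of the plot where it runs further, filled points the 9 tested members, and arrowheads a group at 0 counts. Most points in the MODEL1 panel lie left of 1 (26 of 30), with Kmo to the right in both panels.

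MODEL2 against CTRL gave 0 called members of 9 with edgeR, where 13.3% of all genes were called, 8.3% higher and 4.96% lower. DESeq2 also called 0. At an unadjusted p under 0.05 in edgeR there were 2, Mat1a and Amt, both lower. The share of all genes at that unadjusted threshold is not given here, so these 2 are not read against a background. The log2 fold change was below 0 for 7 of the 9, and the median was -0.61. Cps1 had -0.91 ± 0.49 (edgeR adjusted p = 0.253). Gls2 and Gnmt were the tested members with a value above 0, at 0.22 ± 0.38 and 0.36 ± 0.45.

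MODEL2 was compared with MODEL1 to set the T80K and G31A forms of NFE2L2 side by side under the same CTNNB1 change. Of the 9 tested members, 1 passed, Cps1. The log2 fold change was above 0 for 8 of the 9, with a median of 0.47 against 0.01 over all genes. Cps1 was called, higher by 1.97 ± 0.60 log2 units (edgeR adjusted p = 0.0477; higher in 3 of 3 libraries), where 7.28% of all genes were called in either direction, 3.87% higher and 3.41% lower. Mat1a had 1.94 ± 0.77 (adjusted p = 0.148), Gnmt 1.16 ± 0.47 (0.149) and Gls2 0.83 ± 0.39 (0.230), and none of the 3 passed. All MODEL2 libraries lay above all MODEL1 libraries for Gnmt, Gls2 and Cps1, as they did for 13.5% of all genes; for Gls2 the nearest libraries were 97.4 and 97.6 CPM. Among members that missed the filter, the ratio of MODEL2 to MODEL1 was 4.90 (2.12 to 13.2) for Bhmt, 3.005 (1.21 to 8.46) for Asl and 15.5 (2.36 to 655) for Gldc. Of the 30 members with at least 10 counts, 9 had a lower scaled sum in MODEL2 than in MODEL1, where 56.9% of all such symbols did. The interval lay above 1 for 8 of the 30, as it did for 11% of all such symbols, and below 1 for 0.

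The falls in MODEL1 passed under more settings than the difference between the models did. Cps1 and Mat1a kept an adjusted p below the threshold of 0.05 in 14 of 15 alternatives each. The exception left out the 3 libraries rich in Rn45s, which leaves 1 MODEL1 library: Cps1 was then at -1.93 ± 0.69 (edgeR adjusted p = 0.0921) and Mat1a at -2.25 ± 0.87 (0.125). With age as a covariate they were at -3.11 ± 0.76 (0.00888) and -3.65 ± 0.94 (0.0124). Single libraries moved the size: without MODEL1 replicate 2, Cps1 was at -3.61 and Mat1a at -4.92, and without MODEL1 replicate 3 Mat1a was at -2.86. The Cps1 difference between the models passed in 6 of 15 alternatives. Its adjusted p was 0.118 without MODEL1 replicate 1, 0.120 without MODEL1 replicate 3, 0.127, 0.123 and 0.0773 without MODEL2 replicates 1, 2 and 3, 0.0564 with DESeq2's size factors, 0.0874 with the replicate block, 0.159 with age and 0.441 without the libraries rich in Rn45s. Its value stayed above 0 in all 15, from 1.09 to 2.69.

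**Figure D4:**
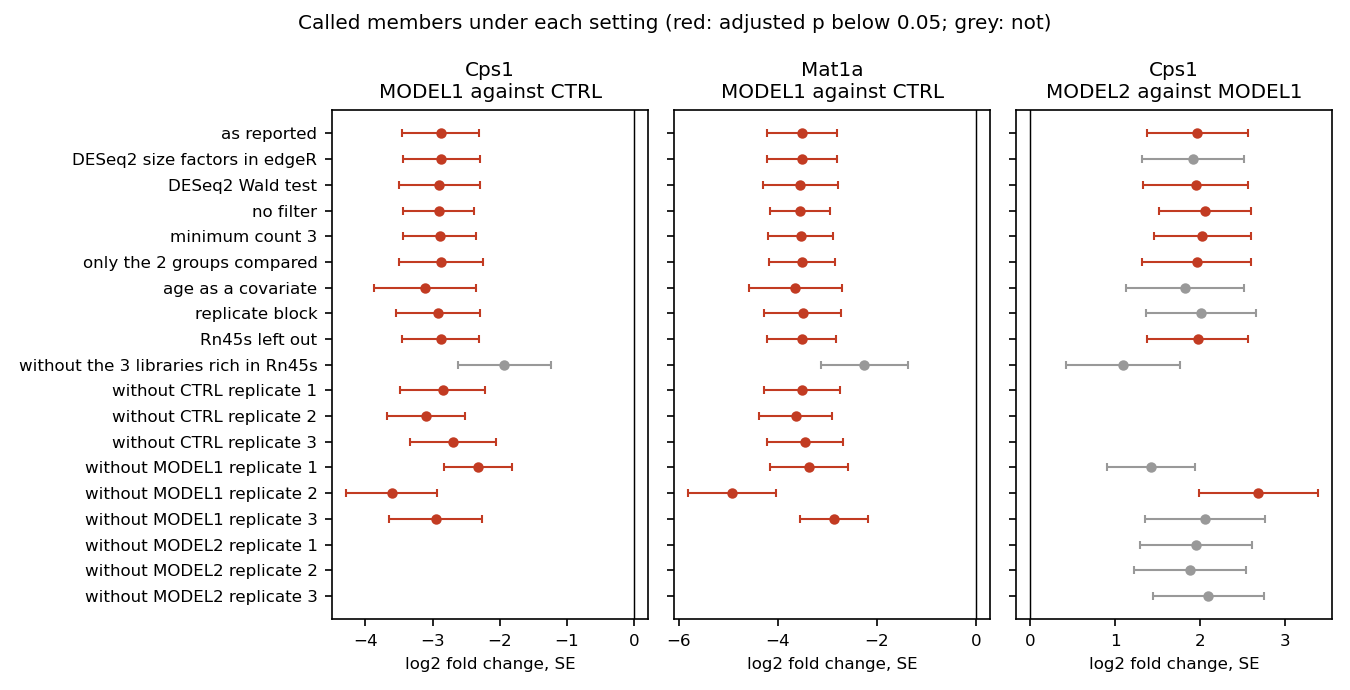
Points give the log2 fold change and bars its SE for the 3 called results under each setting, in red where the adjusted p is below 0.05 and in grey where it is not. The MODEL1 falls of Cps1 (-3.61 to -1.93) and Mat1a (-4.92 to -2.25) are red in all settings but 1, while the Cps1 difference between the models is grey in 9 of its 15 alternatives.

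With a lower minimum count of 3, 26 members could be tested. In MODEL1 the call then also covered Asl at -2.30 ± 0.75 (edgeR adjusted p = 0.0354) and Ahcy at -3.92 ± 1.29 (0.0381), for 4 of 26 members, while 12.3% of all genes were called under that filter. With no filter 37 members were tested, and Cps1 and Mat1a were the 2 called in MODEL1 against CTRL. Of all 14907 genes tested in that way, 4.15% were called, so 2 of 37 is near the background.

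Genes of the same pathways outside the set were called in both directions, and their counts are to be read against the 22.8% of all genes called in MODEL1 and 13.3% in MODEL2. Of 15 further nitrogen and urea cycle genes, 7 were tested, with 1 higher and 1 lower in MODEL1 and 1 higher in MODEL2. Glutamine synthetase (Glul), the perivenous ammonia trap, held 2, 0 and 12 counts in CTRL, 70, 90 and 62 in MODEL1 and 32, 22 and 16 in MODEL2. It rose by 3.77 ± 0.56 log2 units in MODEL1 and by 2.21 ± 0.60 in MODEL2 (edgeR adjusted p = 2.7e-05 and 0.0162), with 116 exon bases shared with Teddm2 on the opposite strand. Mitochondrial alanine aminotransferase (Gpt2) fell by 1.36 ± 0.48 in MODEL1 (adjusted p = 0.0424).

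Of 51 further breakdown genes, 14 were tested. In MODEL1 3 were lower and 0 higher, near the share of all genes called there, with a median log2 fold change of -0.46, and in MODEL2 1 was lower, with a median of -0.27. Mat2a, the S-adenosylmethionine synthetase found outside mature hepatocytes, held 204, 208 and 230 counts in CTRL, 109, 127 and 130 in MODEL1 and 236, 173 and 208 in MODEL2. It fell by 1.04 ± 0.20 in MODEL1 (edgeR adjusted p = 0.000545). Particl shares 508 exon bases with Mat2a on the opposite strand, and reads where they overlap cannot be assigned with certainty. In CTRL, Mat2a held more counts than Mat1a (31, 21 and 32), so its counts may not follow transcript abundance. Afmid, the formamidase after Tdo2, fell by 3.57 ± 0.51 in MODEL1 and by 2.35 ± 0.46 in MODEL2 (adjusted p = 1.7e-05 and 0.00113), and shares 83 exon bases with Tk1 on the opposite strand. Acmsd, which diverts the kynurenine route from NAD synthesis, fell by 0.82 ± 0.28 in MODEL1 (0.0374; opposite exon of 2900009J06Rik). Of 16 amino acid transporters 4 were tested. In MODEL1, Slc1a2, which imports glutamate, rose by 3.40 ± 0.83 (adjusted p = 0.00416; opposite exon of Gm13872) and the neutral amino acid transporter Slc38a4 fell by 2.62 ± 0.68 (0.00650), while none of the 4 was called in MODEL2 by edgeR.

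RefSeq promoter windows (GRCm38.p6) matched 29 of the 39 members and not Arg1, Asl, Cps1, Cth, Gls2, Gpt, Kynu, Mat1a, Sds and Sdsl. In the 250 bases before the start, on both strands, the TCF/LEF core CTTTGA stood in 7 of the 29 (24.1%; 15.8% of 27025 genes), and the antioxidant response element core TGACNNNGC in 2, Bckdhb and Prodh (6.90%; 11.5%). The CRE half-site TGACG stood in 2 (19.8% of all genes), the C/EBP core TTGCNNAA in 3 (10.8%) and the HNF4 site CAAAGTCCA in 0 (0.451%). A match is a string of letters and no measured site.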

How the data were processed

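The values deposited by the authors are unnormalized counts, whole numbers for each gene symbol. The submitters' processing notes name mm10 and the programs HTSeq 0.11.2, HISAT2 2.1.0 and Trimmomatic 0.38; their roles, the annotation and the strand setting are not given in the sources used here. The 3 MODEL2 libraries differ in age and so came from different animals, as did CTRL replicate 3 and the other CTRL libraries. Libraries of the same age have identifiers of their own, but no label states that they are separate animals, so part of the spread behind the p-values may be technical.

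The test was edgeR 4.0.16's quasi-likelihood F test (R 4.3.3), with TMM scaling, on the 2639 genes that filterByExpr kept at a minimum count of 10. A single fit held all 9 libraries, with the 3 comparisons as two-sided contrasts and Benjamini-Hochberg adjustment over all genes (threshold 0.05; common biological coefficient of variation 0.259). The SE is the log2 fold change divided by the square root of F. On simulated counts for MODEL1 against CTRL, with 2639 genes, 40 of 50 genes lowered by 2 log2 units and 12 of 50 lowered by 1 were recovered. The simulation gave every gene the common coefficient of variation and drew the changed genes from all those tested. Recovery for genes with the counts and spread of the members may differ. Summed ratios have exact (Clopper-Pearson) 95% counting intervals. DESeq2 1.42.0 was an alternative. Placements and opposite-strand exons came from GENCODE M21.

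Members and lists were chosen with earlier results of these data known. By rule every member was accounted for. Those tested were given with fit values, those missing the filter singly from 30 counts on, and called genes of the other lists were named. Naming a member under 30 counts was decided with its values in view.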

Additional observations from a re-analysis of the deposited data

Results flagged for a closer look

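Among the 39 members and the further pathway and transporter genes, 3 differed between the models in their change against CTRL. The contrast was MODEL2 against MODEL1 in edgeR's fit, which called 192 of all 2639 tested genes (7.28%). Those tested here were 9 members, 7 further nitrogen and urea cycle genes, 14 further breakdown genes and 4 transporters. Cps1 was higher in MODEL2 by 1.97 log2 units (adjusted p = 0.0477), with 14 counts in MODEL1 and 51 in MODEL2. Mat2a was higher in MODEL2 by 0.88 log2 units (adjusted p = 0.0104). Glul differed by -1.56 log2 units (adjusted p = 0.0387), being higher in MODEL1. Mat2a and Glul share exon bases with opposite-strand genes, as given above, and reads there cannot be assigned with certainty. For all 3 the libraries of the 2 models did not overlap. Over all tested genes, every MODEL2 library lay above every MODEL1 library in 13.5% and below in 13.2%. Groups of 3 libraries are too small to test for an outlying library.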

How the results depend on the processing

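Of 404 member fold changes under an alternative, 392 kept their direction or stayed uncalled, 11 lost and 1 gained a call, and no called value changed sign; 23 uncalled values did. The gain was Mat1a in MODEL2 against CTRL, fitted on those 2 groups alone (-1.59 ± 0.50, edgeR adjusted p = 0.0489), 1 member called where there were 0. Members called in MODEL1 against CTRL numbered 4 with a minimum count of 3, 0 without the libraries rich in Rn45s and 2 to 3 without 1 library. In MODEL2 against MODEL1 they numbered 0 with DESeq2's size factors, age, the replicate block and without the libraries rich in Rn45s, and 0 to 1 without 1 library; in MODEL2 against CTRL, 0 without any 1 library. Over all genes, age as a covariate left 299, 71 and 101 calls of 602, 350 and 192 (MODEL1 and MODEL2 against CTRL, MODEL2 against MODEL1), and leaving out the libraries rich in Rn45s left 299, 210 and 62. Leaving out 1 library gave 497 to 602, 221 to 379 and 85 to 142 calls; the cause was not tested. MODEL2 against CTRL was lowest without CTRL replicate 1, and MODEL2 against MODEL1 gave 142 without MODEL1 replicate 1 and at most 116 without any other library of the 2 models. The replicate block gave 543, 290 and 125 calls. Same-numbered libraries deviated together at r = -0.12 to 0.01 across genes, and 0 of 9 libraries correlated best with their own number. No pairing by number was seen, though at this depth a weak one could be missed. The shallow counts limit the precision of the 30 members that missed the filter.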
